A study of Homo sapiens with 12 samples.

Results

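The p53 target genes CDKN1A, MDM2, TP53I3, BTG2, SESN1, SESN2, ZMAT3, FAS and RRM2B were followed in A549 cells with less or more BTLA. They were taken by gene name and gene ID, 9 of the 60617 genes in the deposited tables, and each has exactly 1 row. A549 is an established line of human lung adenocarcinoma cells, and BTLA is an inhibitory receptor best known from lymphocytes. In the knockdown experiment, 3 libraries of cells carrying BTLA shRNA (shBTLA) were compared with 3 libraries of control cells (shControl). In the sort, 3 libraries of cells with little surface BTLA (BTLA low) were compared with 3 libraries of cells with much of it (BTLA high), separated with a labelled BTLA antibody. All cells grew in RPMI 1640 medium with fetal bovine serum, and no group was given a DNA-damaging agent according to the labels or the methods. By the study's methods, shRNAs were delivered in a lentiviral vector with puromycin selection, the control being the empty vector. The study describes culture of the sorted cells, in which such populations can converge, and it is not clear from it whether RNA was taken before or after that culture. The 2 experiments share no library, and values were compared only within an experiment.

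p53 is a transcription factor that is kept low in unstressed cells because MDM2, itself a p53 target, marks it for degradation. DNA damage and other stresses stabilize p53, which then binds paired copies of a short DNA motif and raises genes of cell-cycle arrest, DNA precursor supply, redox control and apoptosis. A549 cells are known to have lost CDKN2A, the locus of the MDM2 inhibitor ARF. Several p53 targets also answer to other factors. SESN2, for example, is known to be raised by ATF4, the transcription factor of the integrated stress response.

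The p53 motif was looked for in promoter windows of the genes. RefSeq windows of GRCh38.p14, from 250 bases before to 50 bases after a transcript start, were matched for 8 of the 9 genes (16 windows). They were searched on both strands for the p53 consensus without a spacer, which is 20 bases long, allowing at most 3 differing bases. A match was present in 5.2% of all 35116 windows and in 4 of the 16, those being 2 overlapping windows of MDM2 and 1 each of FAS and SESN1. The MDM2 window chr12:68808767-68809066 (plus strand) is shown because it holds a pair of matches, in capitals, beginning 94 and 56 bases before the start site.
MDM2: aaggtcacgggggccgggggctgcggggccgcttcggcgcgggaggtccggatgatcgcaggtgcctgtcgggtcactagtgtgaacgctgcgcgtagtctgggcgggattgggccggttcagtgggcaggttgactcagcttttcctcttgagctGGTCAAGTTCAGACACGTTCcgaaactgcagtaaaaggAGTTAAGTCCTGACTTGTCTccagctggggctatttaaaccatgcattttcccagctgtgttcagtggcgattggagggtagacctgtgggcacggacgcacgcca
The FAS window chr10:88991181-88991480 (plus strand) holds a match 122 bases before its start site with 2 differing bases, and the SESN1 window chr6:109008939-109009238 (minus strand) a match 49 bases before its start site with 3. These windows of MDM2, FAS and SESN1 lie inside the span of the gene, at alternative start sites, and the windows at the outermost starts of the 3 genes hold no match. The matched bases are shown alone, in capitals.
FAS: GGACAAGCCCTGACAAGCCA
SESN1: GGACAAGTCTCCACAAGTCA
The windows of TP53I3 (chr2:24084785-24085084, minus strand) and SESN2 (chr1:28259268-28259567, plus strand) are shown because these genes carry the largest measured differences. Neither window holds a p53 match, nor the ATF4 element TGATGNAAT, which is in 0.991% of all windows and in 0 of the 16. The TP53I3 window lies inside the span of the gene, so its outermost start was not searched. RRM2B, which also differed in the sort, has no window.
TP53I3: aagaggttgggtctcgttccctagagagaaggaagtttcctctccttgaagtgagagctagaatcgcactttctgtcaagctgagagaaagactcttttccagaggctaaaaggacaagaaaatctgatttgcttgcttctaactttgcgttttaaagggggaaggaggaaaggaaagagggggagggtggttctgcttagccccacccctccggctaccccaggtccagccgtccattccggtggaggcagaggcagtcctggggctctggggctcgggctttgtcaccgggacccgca
SESN2: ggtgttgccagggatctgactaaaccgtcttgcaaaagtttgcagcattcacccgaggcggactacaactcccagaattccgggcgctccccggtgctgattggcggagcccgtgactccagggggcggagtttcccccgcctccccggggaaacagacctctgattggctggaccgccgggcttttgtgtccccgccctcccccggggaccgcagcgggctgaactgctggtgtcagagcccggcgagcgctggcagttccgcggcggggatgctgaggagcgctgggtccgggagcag
A match is a description of the sequence, and its absence says only that the letters are not in the window.

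The libraries held 29130357 to 42488067 reads. The deposited values are RPKM, from which whole reads per gene were recovered and expressed per 1000000 reads of the library (RPM). RPM is not corrected for gene length, so levels are compared only within a gene. The smallest member count was 18 reads in the knockdown and 54 in the sort. Differences are log2 fold changes of RPM + 0.1 from limma, and a gene is called at a Benjamini-Hochberg adjusted p under 0.05 over all genes tested. BTLA itself had 0 to 2 reads per library, at or under a floor of 3 reads, so it cannot check the labels at this depth. TNFRSF14, which encodes the BTLA ligand HVEM, had 0 to 12 reads and CDKN2A 0 to 4. The epithelial keratins KRT8 and KRT18 were abundant. Of 6 lymphocyte markers, 3 (CD3D, CD3E and MS4A1) were at 0 in all knockdown libraries and 5 in all sort libraries. Of 5 myeloid markers, 2 (AIF1 and FCGR3A) were at 0 in all libraries, while CD14 and ITGAM had enough reads to be tested in the sort. In the sort the median log2 fold change of all genes was 0.18 rather than 0, and scaling the libraries to a common median ratio shifts it by −0.17. Reads from mitochondrially encoded genes were 6.76% to 7.24% of BTLA low libraries and 5.25% to 5.79% of BTLA high libraries, without overlap (two-sided exact permutation p = 0.1, a value that 3 against 3 cannot go below). In the knockdown, shControl 1 stood apart, at 6.88% ribosomal protein reads against 9.36% to 11.6% in the other libraries.

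Of the 9 genes, TP53I3 alone was called in shBTLA cells, where it was lower, and 3 were called in BTLA low cells, TP53I3 lower and SESN2 and RRM2B higher. The background was 1.47% of 16630 tested genes called in the knockdown (0.782% higher and 0.686% lower) and 25.4% of 16911 in the sort (19.1% higher and 6.25% lower). The 3 of 9 called in the sort, 33.3%, is therefore near the share of all genes. The groups did not overlap for 1 of the 9 genes in the knockdown, against 17.9% of all tested genes, and for 5 of 9 in the sort, against 41.8%. The median log2 fold change of the 9 genes was −0.11 in the knockdown, beside −0.02 over all genes, and 0.19 in the sort, beside 0.18. In the knockdown 2 of the 9 values were above 0 and 7 below, and in the sort 5 were above and 4 below.

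**Figure D1:**
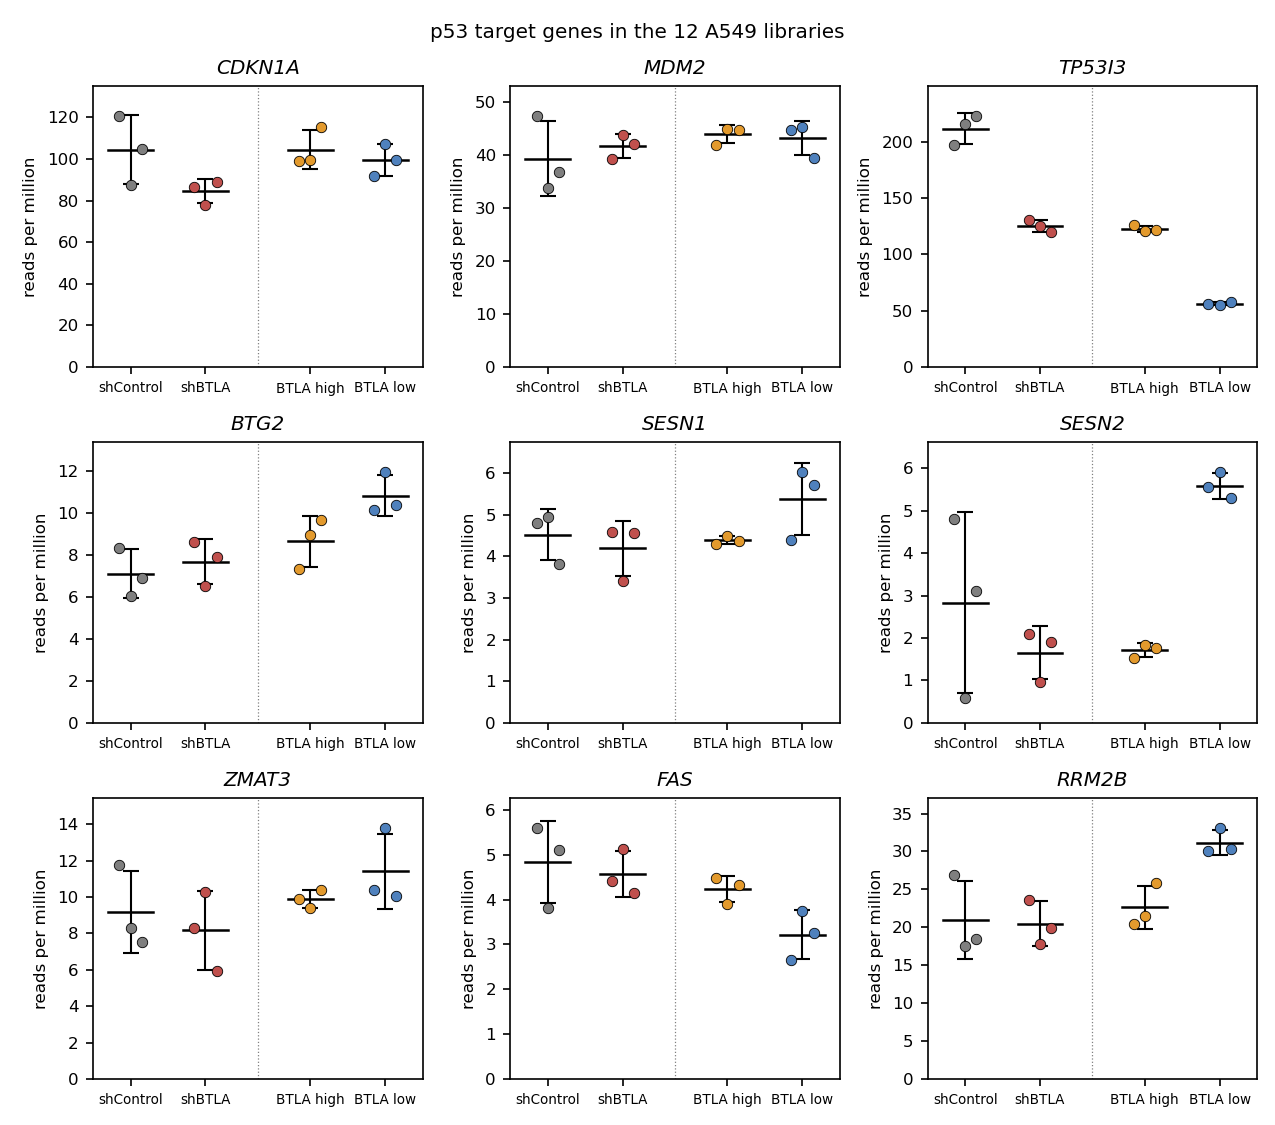
RPM (vertical axes, each starting at 0) of the 9 genes in shControl, shBTLA, BTLA high and BTLA low libraries. Points are libraries (3 per group), horizontal lines are means and bars are ± 1 SD. TP53I3 is lower in shBTLA than in shControl and lower in BTLA low than in BTLA high with no overlap, SESN2 is separated only in the sort, and CDKN1A and MDM2 overlap in both experiments.

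The effectors of cell-cycle arrest and the p53 feedback gene come first. CDKN1A encodes p21, an inhibitor of cyclin-dependent kinases, and lies on chromosome 6 from 36676460 to 36687339 (GRCh38). Its level was 86.6, 77.9 and 89.0 RPM in shBTLA 1, 2 and 3, and 121, 87.6 and 105 RPM in shControl 1, 2 and 3. The groups overlapped, since shBTLA 3 was above shControl 2. Its log2 fold change was −0.30 (95% interval −0.61 to 0.02, adjusted p = 0.499). In the sort it was 91.9, 107 and 99.3 RPM in BTLA low and 99.0, 99.3 and 115 RPM in BTLA high, again with overlap, at a log2 fold change of −0.07 (−0.28 to 0.14, adjusted p = 0.611). With the sort libraries scaled to a common median ratio the value was −0.25 (adjusted p = 0.0375), a call that the unscaled values do not give.

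MDM2, the ubiquitin ligase that restrains p53, lies on chromosome 12 from 68808177 to 68850686. It was at 39.2, 43.7 and 42.0 RPM in shBTLA and 47.3, 33.8 and 36.7 RPM in shControl. The controls lay on both sides of all shBTLA libraries, at a log2 fold change of 0.10 (−0.24 to 0.44, adjusted p = 0.857). In BTLA low it was 44.7, 45.2 and 39.4 RPM and in BTLA high 41.9, 44.9 and 44.7 RPM. That is a log2 fold change of −0.03 (−0.23 to 0.18, adjusted p = 0.857), the smallest in size of the 9 genes in the sort. In neither comparison did the difference exceed the spread between libraries, and the intervals allow changes of up to 0.44 on the log2 scale. MDM2 overlaps CPM on the opposite strand, which had 1511 reads over all libraries against 17915 for MDM2, and the strand setting of the counting is not given in the sources used here.

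BTG2 is an antiproliferative protein that recruits the CCR4-NOT deadenylase to mRNAs, from chromosome 1, 203305491 to 203309602. It was at 8.61, 6.51 and 7.88 RPM in shBTLA and 8.34, 6.03 and 6.91 RPM in shControl, a log2 fold change of 0.11 (−0.32 to 0.55, adjusted p = 0.869). In BTLA low it was 10.1, 11.9 and 10.4 RPM, all above the 7.31, 8.94 and 9.67 RPM of BTLA high. A log2 fold change of 0.33 (−0.00 to 0.65) did not pass the test (adjusted p = 0.129).

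The metabolic and redox members held the largest differences. TP53I3, also called PIG3, encodes a quinone oxidoreductase-like enzyme that was identified among genes induced by p53 before apoptosis, and lies on chromosome 2 from 24077433 to 24085861, on the minus strand. In shBTLA it was at 130, 125 and 119 RPM, and in shControl at 197, 216 and 223 RPM. Every shBTLA library was below every control, with a mean of 125 ± 5.44 (SD, n = 3) against 212 ± 13.4 RPM. Its log2 fold change was −0.76 (SE 0.10, adjusted p = 0.0135), and by p it was the 17th of the genes with a negative fold change.

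In the sort, TP53I3 was at 56.3, 54.7 and 58.0 RPM in BTLA low and 126, 121 and 122 RPM in BTLA high. The BTLA low mean of 56.3 ± 1.63 RPM was 0.458 times the BTLA high mean of 123 ± 2.699 RPM. The log2 fold change was −1.12 (SE 0.08, adjusted p = 4.07e-05), with the 8th smallest p of the genes with a negative fold change. The spread between libraries of a group was small, 2.20% to 6.33% of the mean in the 4 groups. In the sort the call held in all 15 alternatives, at −1.30 to −1.10. In the knockdown it was lost without shBTLA 1, 2 or 3 or shControl 3 in turn (adjusted p 0.101 to 0.129) and without the variance trend (0.0588), while the log2 fold change stayed between −0.81 and −0.72.

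TP53I3 overlaps FAM228B on the opposite strand. FAM228B had 59 to 155 reads per knockdown library where TP53I3 had 4470 to 8648, and it too was lower in shBTLA, at 2.13, 1.65 and 1.77 RPM against 3.84, 4.05 and 3.99 RPM (adjusted p = 0.0426). In the sort FAM228B was 2.18, 1.74 and 1.69 RPM in BTLA low and 1.56, 2.09 and 1.45 RPM in BTLA high, with overlap (adjusted p = 0.686), while TP53I3 was lower. Without the strand setting, reads of the 2 genes cannot be told apart where they overlap.

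SESN1 and SESN2 encode sestrins, stress proteins that restrain the growth kinase mTORC1 and protect against oxidation. SESN1, on chromosome 6 from 108986437 to 109094819, was at 4.58, 3.42 and 4.57 RPM in shBTLA and 4.81, 4.96 and 3.81 RPM in shControl (log2 fold change −0.11, adjusted p = 0.885). In BTLA low it was 4.39, 6.03 and 5.73 RPM, and in BTLA high 4.31, 4.50 and 4.36 RPM. The lowest BTLA low library lay among the BTLA high libraries, and the log2 fold change of 0.28 (−0.10 to 0.65) did not pass (adjusted p = 0.247).

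SESN2, on chromosome 1 from 28259518 to 28282491, had the largest log2 fold change of the 9 genes. It was at 5.55, 5.91 and 5.30 RPM in BTLA low (163, 245 and 172 reads) and 1.53, 1.84 and 1.77 RPM in BTLA high (54, 78 and 56 reads). All BTLA low libraries were above all BTLA high libraries, and the ratio of the means was 3.26. Its log2 fold change was 1.65 (SE 0.17, adjusted p = 2.59e-04), and by p it was the 141st of the genes with a positive fold change. It was called in 14 of the 15 alternatives. The exception is the fit of the deposited RPKM as they stand, where SESN2 carries the length of another, much longer gene and its values are small beside the pseudocount (0.04, adjusted p = 0.267).

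In the knockdown SESN2 was the most variable of the 9 genes. The controls were at 4.81, 0.58 and 3.12 RPM (140, 18 and 121 reads), so that shControl 1 and shControl 2 differed more than any shBTLA library did from the control mean. shBTLA libraries were at 2.11, 0.95 and 1.92 RPM, within the range of the controls. The log2 fold change of −0.40 has an interval from −1.95 to 1.15 (adjusted p = 0.872), and the value was 0.17 without shControl 1 and −1.25 without shControl 2. Whether the SESN2 effects in the 2 experiments differ was not tested.

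**Figure D2:**
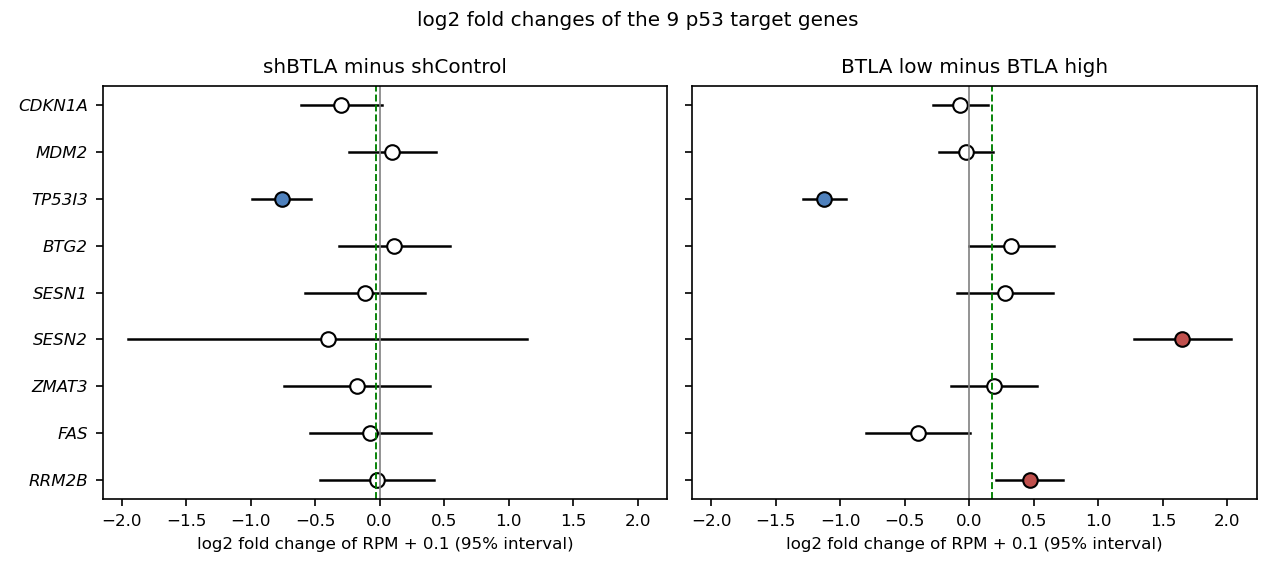
log2 fold changes of RPM + 0.1 (horizontal axes) for the 9 genes, shBTLA minus shControl at left and BTLA low minus BTLA high at right. Bars are 95% intervals, filled points passed an adjusted p of 0.05 (blue lower, red higher), and the green dashed line is the median of all tested genes (−0.02 and 0.18). TP53I3 is at −0.76 and −1.12, SESN2 at 1.65 with a narrow interval only in the sort.

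RRM2B, the p53-inducible small subunit of ribonucleotide reductase, which supplies deoxynucleotides for DNA repair and for mitochondrial DNA, lies on chromosome 8 from 102204502 to 102239118. In the knockdown it was at 23.6, 17.8 and 19.9 RPM in shBTLA and 26.8, 17.6 and 18.5 RPM in shControl. These ranges overlapped, and the log2 fold change was −0.02 (−0.46 to 0.42, adjusted p = 0.982). In BTLA low it was 30.1, 33.1 and 30.3 RPM, and in BTLA high 20.5, 21.5 and 25.8 RPM. All BTLA low libraries were above all BTLA high libraries, with a log2 fold change of 0.47 (SE 0.11, adjusted p = 0.0168), beside a median of 0.18 over all genes. After scaling it was 0.29 (adjusted p = 0.0437), and the call was lost without BTLA high 1 (0.0893), BTLA high 2 (0.0520) or BTLA low 3 (0.0597) and with the deposited RPKM as they stand (0.0600). It was also lost with the replicate number as a block (adjusted p = 0.0688).

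FAS, the death receptor that triggers caspase 8, lies on chromosome 10 from 88990531 to 89017059. It was at 4.42, 5.13 and 4.14 RPM in shBTLA and 5.60, 3.82 and 5.10 RPM in shControl (log2 fold change −0.07, −0.54 to 0.40, adjusted p = 0.928). In BTLA low it was 2.65, 3.74 and 3.26 RPM, all below the 4.48, 3.91 and 4.33 RPM of BTLA high. The log2 fold change of −0.40 (−0.80 to 0.01) did not pass (adjusted p = 0.134), and with the libraries scaled to a common median ratio it was −0.57 (adjusted p = 0.0309). FAS overlaps ACTA2 on the opposite strand, which had 811 reads over all libraries against 1803 for FAS.

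ZMAT3 encodes a zinc finger protein that binds RNA, from chromosome 3, 178960121 to 179072215. It was at 8.32, 10.3 and 5.94 RPM in shBTLA and 11.7, 8.29 and 7.52 RPM in shControl (log2 fold change −0.17, adjusted p = 0.848). In the sort it was 10.4, 13.8 and 10.1 RPM in BTLA low and 9.87, 9.39 and 10.4 RPM in BTLA high. The groups overlapped (log2 fold change 0.19, adjusted p = 0.361), and after scaling the value was 0.02.

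Single libraries were high across many of the 9 genes at once. shControl 1 was the highest control for 7 of the 9 genes, TP53I3 and SESN1 being the exceptions, and BTLA low 2 was the highest BTLA low library for 8 of the 9, with RRM2B and MDM2 among them and TP53I3 the exception. The same count was not made over all genes, so it cannot be read as a trait of the 9. shControl 1 and BTLA low 2 also had the lowest share of ribosomal protein reads of their experiment, 6.88% and 6.40%. With that share as a covariate, CDKN1A was called in both comparisons, at −0.21 in the knockdown (adjusted p = 0.00799) and −0.25 in the sort (0.00146), and FAS in the sort at −0.60 (0.0447). The covariate also raised the calls over all genes, from 244 to 2640 of 16630 in the knockdown and from 4295 to 6065 of 16911 in the sort. The part of the ribosomal protein share in the differences was not tested further.

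By rule, the 3 genes whose profile over the 12 libraries is nearest to that of each called member were named, among 11223 genes with a mean of at least 100 reads, by the root mean square difference of log2(RPM + 0.1) centred within each experiment. TP53I3 was nearest to ESAM (0.06), an adhesion molecule of endothelial cells and platelets, PDLIM7 (0.09), an actin-associated scaffold protein, and EPHB2 (0.10), an ephrin receptor. The group differences are part of the profiles, so that these genes share the direction of TP53I3 by selection, with log2 fold changes of −0.69, −0.70 and −0.70 in the knockdown and −1.05, −0.97 and −1.01 in the sort. RRM2B was nearest to MALT1 (0.05), a paracaspase of NF-kB signaling, the riboflavin kinase RFK (0.06) and the neurotrophin receptor NTRK3 (0.07), each higher in BTLA low by the same selection. SESN2 had no close neighbour, the nearest being ZFP36L2 (0.42), a factor of mRNA decay, NBPF8 (0.42), of a family of near-identical copies whose reads are uncertain, and LINC00265 (0.44).

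Regulators of p53 were next compared. Of the 15 tested genes of this list, 2 were called in the sort, both higher, 13.3% beside 25.4% of all genes. Their median log2 fold change there was 0.12, beside 0.18 over all genes. In the knockdown 1 was called, lower, 6.67% beside 1.47%. MDM4, a partner of MDM2 that inhibits p53, was at 28.0, 36.8 and 32.8 RPM in BTLA low and 21.5, 21.7 and 23.8 RPM in BTLA high, a log2 fold change of 0.54 (adjusted p = 0.0110), a call lost without BTLA low 3 (0.0545) or BTLA high 1 (0.0606). In the knockdown its groups overlapped (−0.13, adjusted p = 0.823). PPM1D, the phosphatase that switches p53 off, was not called in either, at −0.08 (adjusted p = 0.932) and 0.12 (0.597). TP63, a p53 family member of basal epithelium, was called in both and in opposite directions. It was at 7.34, 6.14 and 5.60 RPM in shBTLA against 21.7, 13.2 and 14.3 RPM in shControl (−1.33, adjusted p = 0.0292), and at 23.4, 28.4 and 28.4 RPM in BTLA low against 9.21, 10.3 and 14.2 RPM in BTLA high (1.26, adjusted p = 8.53e-04). The knockdown call of TP63 was lost without shBTLA 1, 2 or 3 or shControl 3, without the variance trend and with the deposited RPKM as they stand.

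Outside the 9 genes, 74 other p53 targets in 5 lists were tested. In the knockdown 1 of them was called lower and 0 higher by limma, 1.35% beside the 1.47% of all genes, likewise by voom, with 9 at an unadjusted p under 0.05, 3 higher and 6 lower.

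In the sort 16 of the 74 were called higher and 10 lower, 35.1% called beside 25.4% of all genes (19.1% higher and 6.25% lower). The split became 10 higher and 19 lower when the libraries were scaled to a common median ratio. Without BTLA low 3 the calls were 8 higher and 7 lower, and without BTLA high 1 they were 9 and 5. Over all genes the split was 2054 higher and 2238 lower after scaling, 1659 and 510 without BTLA low 3, and 1568 and 416 without BTLA high 1. The median log2 fold change of the 74 genes was 0.09, below the 0.18 of all genes. Among 25 genes of growth arrest and signaling, 7 were higher and 4 lower, 44.0% called beside the 25.4% of all genes. The secreted stress cytokine GDF15 was at 103, 81.6 and 101 RPM in BTLA low and 37.8, 45.5 and 37.2 RPM in BTLA high (1.24, adjusted p = 1.99e-04). The antiproliferative genes BTG1 (0.70) and TOB1 (1.10) and the p53 cofactor gene TP53INP1 (1.02) were also higher. GADD45A (−0.68), a stress sensor of the DNA damage response, the AKT inhibitor PHLDA3 (−0.47), the ephrin receptor EPHA2 (−0.41) and the polo-like kinase PLK2 (−0.37) were lower.

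Of 17 apoptosis targets, 4 were higher and 2 lower, and these 35.3% called stand beside 25.4% of all genes. BBC3, which encodes the BH3-only protein PUMA, was at 48.4, 41.5 and 53.3 RPM in BTLA low and 25.4, 31.1 and 28.7 RPM in BTLA high (0.75, adjusted p = 0.00248). CASP10 (0.81), PMAIP1 (0.49), which encodes NOXA, and PIDD1 (0.33) were higher, of which PMAIP1 and PIDD1 were not called after scaling. The pore-forming BAX (−0.49) and the nuclease AEN (−0.46) were lower. Of 6 DNA repair targets, 0 were called by limma or voom, with 1 at an unadjusted p under 0.05.

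In metabolism, redox control and autophagy, the functions nearest to TP53I3 and the sestrins, 3 of 18 were higher and 2 lower, 27.8% called beside 25.4%. DDIT4, an inhibitor of mTORC1 like the sestrins, was at 30.1, 32.0 and 30.5 RPM in BTLA low and 9.02, 8.90 and 14.2 RPM in BTLA high (1.55, adjusted p = 3.79e-04). PGPEP1 (0.85), a peptidase, and the lysosomal fucosidase FUCA1 (0.41, not called after scaling) were the others. GPX1, a glutathione peroxidase, was at 170, 137 and 176 RPM in BTLA low and 340, 342 and 271 RPM in BTLA high (−0.98, adjusted p = 6.60e-04), and the ferrireductase STEAP3 was lower too (−0.69). Of 8 matrix and membrane targets, NINJ1 (0.32) and PLXNB2 (0.27) were higher, neither of them after scaling, and 2 were lower, among them RHOD (−0.49). Thus 4 of these 8 were called, beside 25.4% of all genes (19.1% higher and 6.25% lower).

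**Figure D3:**
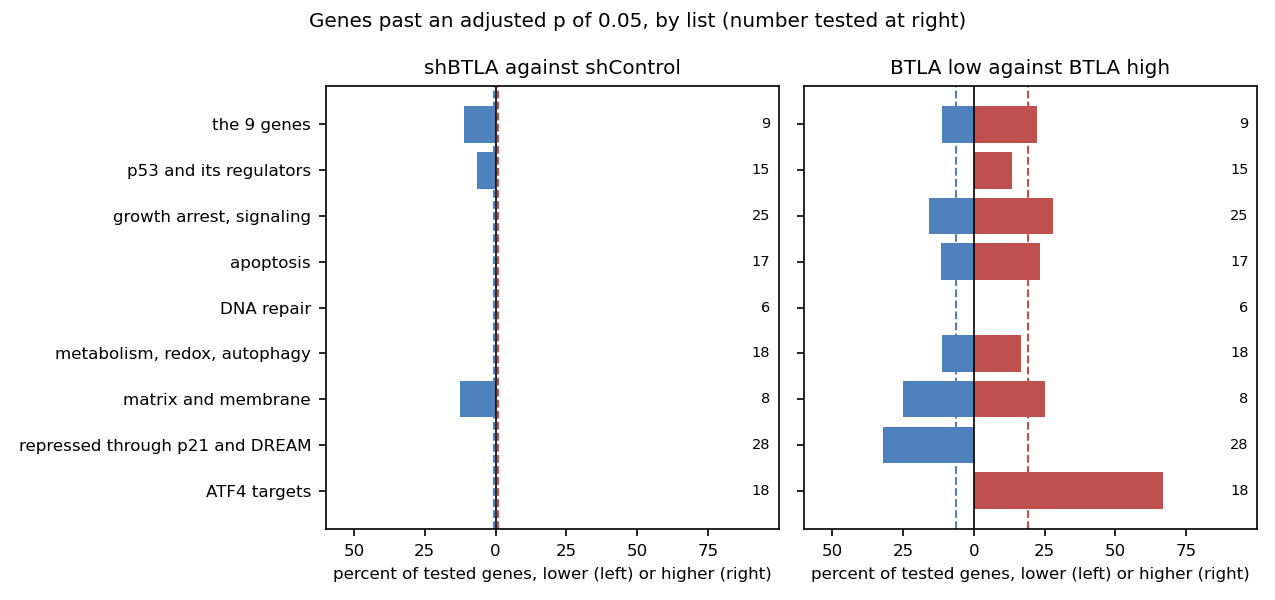
Share of the tested genes of each list called lower (bars to the left, blue) or higher (bars to the right, red) in the knockdown and the sort, with the number tested at the right edge. Dashed lines are the shares over all tested genes, 0.782% higher and 0.686% lower at left and 19.1% and 6.25% at right. In the sort the p53 target lists have bars on both sides, other than the DNA repair targets, which have none, the genes repressed through p21 and DREAM only to the left and the ATF4 targets only to the right.

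p53 lowers many cell-cycle genes through p21 and the DREAM repressor complex, so these were examined with CDKN1A. Of 28 such genes, 9 were lower and 0 higher in BTLA low, 32.1% called beside 25.4% called and 6.25% called lower among all genes. They were 10 and 0 at an unadjusted p under 0.05 and 9 and 0 by voom. The median log2 fold change was −0.11, beside 0.18 over all genes. CDC20, an activator of the anaphase-promoting complex, was at 211, 188 and 204 RPM in BTLA low and 361, 339 and 317 RPM in BTLA high (−0.75, adjusted p = 3.11e-04). MYBL2 (−0.41), PLK1 (−0.41) and BIRC5 (−0.36), genes of mitotic entry and progression, followed. After scaling, 16 of 28 were lower, while lower calls over all 16911 genes rose from 1057 to 2238. The count was 3 without BTLA high 1 and without the variance trend, 4 without BTLA low 3, and 5 without BTLA low 1. Lower calls over all genes were 416, 676, 510 and 757 in these fits, in the same order. In the knockdown 0 of 28 were called by limma or voom, 0 at an unadjusted p under 0.05, with a median of −0.09.

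SESN2 was also set beside 18 ATF4 target genes, ATF4 included, a list chosen, like the others, with earlier results of these data known. In BTLA low 12 of 18 were higher and 0 lower (13 and 0 at an unadjusted p under 0.05, and 12 and 0 by voom), a share of 66.7% where 19.1% of all genes were higher. CHAC1, which degrades glutathione, was at 11.5, 8.29 and 12.6 RPM in BTLA low and 1.30, 1.95 and 1.93 RPM in BTLA high (2.57, adjusted p = 1.10e-04). PCK2 (1.57) of gluconeogenesis in mitochondria, PHGDH (1.04) of serine synthesis and the pseudokinase gene TRIB3 (0.82) were higher as well. ATF4 mRNA itself was at 511, 454 and 543 RPM against 398, 415 and 374 RPM (0.34, adjusted p = 0.0169), and was not called after scaling (0.17, adjusted p = 0.314) or without BTLA low 1, BTLA low 3 or BTLA high 1. After scaling, 6 of the 18 were higher and 1 lower, and the count was 5 higher without BTLA low 3 or BTLA high 1 and 7 higher without the variance trend. Higher calls over all genes, 3238 in the main fit, were 2054 after scaling, with 2238 lower. They were 1659 without BTLA low 3, 1568 without BTLA high 1 and 2512 without the variance trend. In the knockdown 0 of 18 were called by limma or voom, with 2 lower and 0 higher at an unadjusted p under 0.05, and the median was −0.01. Whether ATF4 has a part in the SESN2 difference was not tested.

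**Figure D4:**
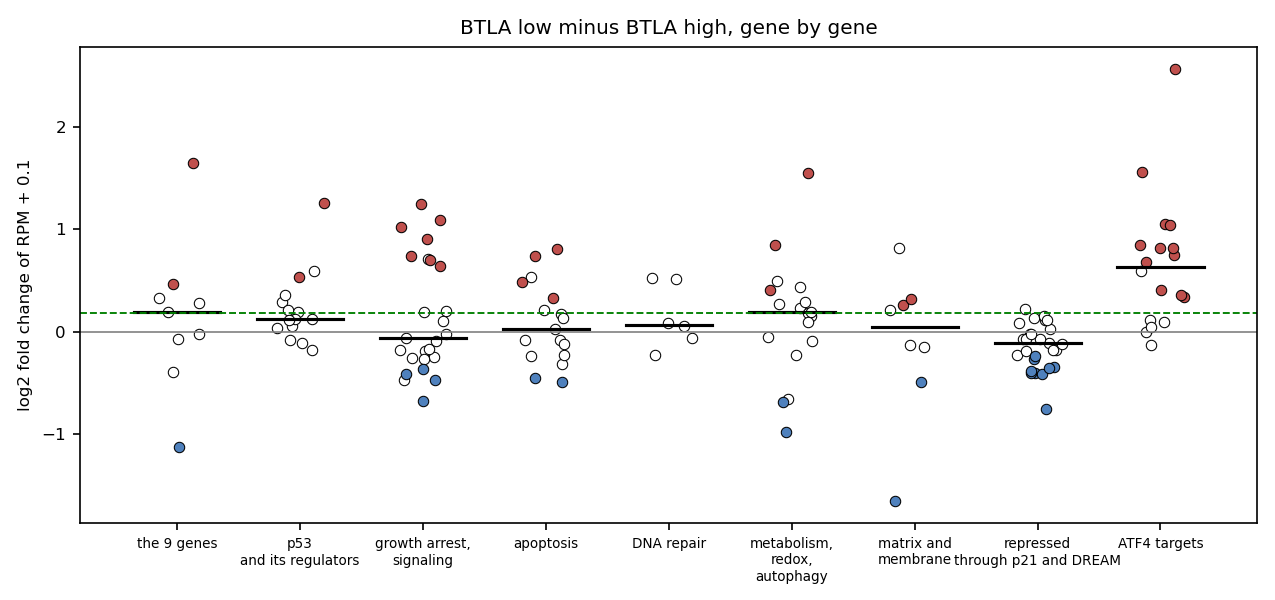
log2 fold changes of RPM + 0.1, BTLA low minus BTLA high, for each tested gene (points) of the 9 genes and of the other lists. Filled points passed an adjusted p of 0.05, black lines are list medians and the green dashed line is the median of all genes (0.18). The medians are −0.11 for genes repressed through p21 and DREAM and 0.64 for ATF4 targets, and the p53 target lists lie between with genes on both sides.

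Marker lists were measured beside these genes. The summed level of 5 epithelial markers was 17654 to 20848 RPM in BTLA low and 12028 to 15330 RPM in BTLA high. Of the 5, 4 had enough reads to be tested in the sort. All 4 were called higher (2 of them after scaling), beside 19.1% of all genes, and the groups did not overlap for 3. In the knockdown the sum was 12128 to 14714 RPM in shBTLA against 5839 to 9530 RPM in shControl. There 0 of 5 were called by limma or voom, with 3 higher at an unadjusted p under 0.05. The summed level of 5 myeloid markers was 2.97 to 4.08 RPM in BTLA low and 5.12 to 5.30 RPM in BTLA high, where of 2 tested ITGAM was lower (−1.52, adjusted p = 0.00390) and CD14 was at 0.23 (0.412). Lymphocyte markers summed to at most 1.19 RPM and endothelial markers to at most 0.52 RPM in any library. The part of these lists in the values of the p53 target genes was not tested. The labels do not say whether replicate libraries stem from separate cultures, and all p-values rest on the spread among the libraries as deposited.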

How the data were processed

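The series holds 12 RNA-Seq libraries of A549 cells, 3 per group, grouped by their labels. Per the submitters' notes and the methods, adaptors were removed with Trim Galore 0.6.6, STAR was used for alignment to GRCh38 (Ensembl genes), and featureCounts for gene counts. The authors deposited RPKM per gene and library. The authors' deposited tables of their edgeR comparisons (fold changes, p-values and related columns) were not used, apart from gene names and positions. The deposited RPKM were divided by the span of another gene, the one at the same place in the sorted list of gene IDs. Multiplying by that span gave whole reads within 0.02 of a read for all values above 0. Of 1820 genes without a span, 764 were 0 throughout and for 1056 a length was searched. Reads were divided by library totals (RPM).

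The knockdown and the sort were fitted separately in limma 3.58.1 (R 4.3.3, eBayes with trend), taking log2(RPM + 0.1) as the response. A gene entered a fit if 3 or more of the 6 libraries had 10 or more of its reads. The unit planned, log2 of RPKM, was replaced for the reason above and is kept as an alternative. No count model was run on the recovered reads other than voom. Scripts were tested on simulated data. Tables, sequence searches and plots were made with Python 3.11.15, numpy 2.4.6, pandas 2.3.3 and matplotlib 3.10.9. Single values were compared by exact permutation tests. Intervals are 95% and the floor of 3 reads covers counting error only. The 9 genes, the other lists and the tests were chosen with earlier results of these data known. Named genes are the 9 genes, MDM4, PPM1D, CDKN2A, BTLA and TNFRSF14, up to 4 called genes of smallest p per list, comparison and direction, and the 3 nearest profiles of each called member. ATF4, FAM228B, CPM, ACTA2 and ITGAM were named after their values were seen. Some genes that this rule names are not reported here. Promoter sequences are from RefSeq (GRCh38.p14).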

Additional observations from a re-analysis of the deposited data

How the results depend on the processing

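Alternatives were fitted for each comparison, 15 per gene. Of 270 values for the 9 genes, 240 kept direction and call, 11 lost the call, 5 gained it and 14 changed sign. The number of genes called was 244 in the knockdown and 4295 in the sort. Leaving out a library gave 27 to 483 and 1984 to 5991. In the knockdown it was 155 without the variance trend and 2640 with the ribosomal protein share as covariate. Members called in the knockdown were 1 in the main fit, 0 without the trend, 2 with the covariate and 0 to 1 when a library was left out. In the sort they were 3, and 5 after scaling to a common median, 1 with RPKM as deposited and 5 with the covariate. Of 135 other listed genes, 2 were called in the knockdown, 1 with RPKM as deposited, 0 without the trend, 26 with the covariate and 0 to 5 when a library was left out. In the sort 49 were called, 31 without the trend, 78 with the covariate and 23 to 58 when a library was left out. Scaling turned the split of all sort calls from 3238 higher and 1057 lower to 2054 and 2238.

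Sign changes in the knockdown, all far from a call, were SESN2 0.14 and RRM2B 0.11 with the covariate, RRM2B 0.0161 after scaling, and with a library left out MDM2 −0.00174 (range to 0.24), SESN1 0.0251 (from −0.23), SESN2 0.17 (from −1.25), ZMAT3 0.0348 and 0.0138 (from −0.355), FAS 0.0410 (from −0.23) and RRM2B 0.08 and 0.17 (from −0.13). In the sort they were ZMAT3 −0.0433 with the covariate, CDKN1A 0.00184 without BTLA high 3 (from −0.13) and MDM2 0.0364 without BTLA low 3 (from −0.0623). Causes were not tested. Of the listed genes named in the sort, AEN, BBC3, BTG1, CASP10, CDC20, CHAC1, DDIT4, GADD45A, GDF15, GPX1, MYBL2, PCK2, PGPEP1, PHGDH, PLK1, STEAP3, TOB1, TP53INP1, TP63 and TRIB3 were called in all 15 alternatives, while PLXNB2 was called in 5, PIDD1 and PLK2 in 6, NINJ1, PHLDA3 and RHOD in 8, ATF4, EPHA2, FUCA1 and PMAIP1 in 9, BAX in 11, BIRC5 in 12 and MDM4 in 13.

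Same-numbered libraries deviated together with r of 0.22, 0.41 and −0.04 in the knockdown and 0.07, −0.37 and −0.16 in the sort. In the sort the numbers thus do not pair the libraries. In the knockdown r was −0.40 to 0.26 for libraries of different number, and these values do not settle whether the numbers pair them. With a replicate block 545 genes were called in the knockdown and 2187 in the sort, of the other listed genes 4 and 24. In the sort the other p53 targets were then 8 higher and 5 lower, the genes repressed through p21 and DREAM 3 lower and the ATF4 targets 6 higher. RRM2B had an adjusted p of 0.0688. SESN2 had 18 to 140 reads in the knockdown, the lowest counts of the 9 genes there.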

Other observations

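Several other p53 targets separated the groups of the knockdown without passing the test there, and they are listed as values chosen after seeing them. Of the 74 tested, the groups did not overlap for 13 in the knockdown (17.6%, beside 17.9% of all genes) and for 38 in the sort (51.4%, beside 41.8%). For 11 genes (14.9%, beside 10.7% of the 16160 genes tested in both) they did not overlap in either comparison. The direction was the same in 8, or 72.7% of the 11, beside 77.5% of all such genes (among them AEN, DDB2, GADD45A, GDF15, PGPEP1, PLK2 and STEAP3) and opposite directions in 3 (EI24, PGF and TP53INP1). GDF15 was at 37.9, 33.9 and 30.1 RPM in shBTLA and 17.0, 24.1 and 22.3 RPM in shControl (log2 fold change 0.69, adjusted p = 0.114). GADD45A was at 37.2, 37.1 and 34.1 RPM in shBTLA and 51.8, 44.9 and 53.9 RPM in shControl (−0.47, adjusted p = 0.135). PLK2 was at 114, 90.1 and 103 RPM in shBTLA and 200, 128 and 157 RPM in shControl (−0.64, adjusted p = 0.157). TP53INP1, higher in BTLA low, was at 3.89, 3.25 and 4.12 RPM in shBTLA and 5.60, 4.28 and 5.10 RPM in shControl (−0.40, adjusted p = 0.523). Whether the effects differ between the experiments was not tested.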
